A study of Mus musculus with 6 samples.

Results

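The cytosolic ribosomal proteins are the protein components of the ribosomes that translate nuclear-encoded messenger RNAs. Their genes were taken from the deposited count table by name: Rpl or Rps and a number, optionally with a letter and a digit after it. Rplp0, Rplp1, Rplp2 and Rpsa were added, and Rps27l was left out. Longer names, such as that of the kinase Rps6kb1, and rows with a pseudogene suffix do not match. The rule found 87 of 45527 named rows. Of these, 31 encode the proteins of the small subunit and 46 those of the large subunit, 77 core members in all. The other 10 rows are additional copies: the paralogues Rpl3l, Rpl7l1, Rpl10l, Rpl22l1, Rpl39l and Rps4l, and Rpl6l, Rps3a2, Rps3a3 and Rps12l1, which were set apart after their names were seen and which the annotation lists as processed pseudogenes. Rps4l is annotated as a transcribed pseudogene. Fau, Rack1 and Rpl36al, which also encode ribosomal proteins, lie outside the name pattern.

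RNA was sequenced from satellite cells, which are muscle stem cells marked by Pax7, sorted by yellow fluorescent protein 24 h after the lower hindlimb muscles had been injured with 30 µl of cardiotoxin. All mice carried Pax7creER, a tamoxifen-inducible Cre recombinase under control of the Pax7 gene, and the Cre-activated reporter R26R-YFP. The 3 control libraries came from Paxbp1flox/+ mice, which keep 1 allele that Cre cannot delete, and the 3 libraries labelled Paxbp1-iKO from Paxbp1flox/flox mice. The sources used here give neither the ages of the mice nor the tamoxifen schedule nor the number of mice per library, so p-values measure the spread between libraries only.

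A ribosome holds 1 copy of most of these proteins, and cells make them in balanced amounts. Their messenger RNAs are known as TOP mRNAs: they begin with a terminal oligopyrimidine tract, a run of C and T bases through which the mTORC1 kinase and the RNA-binding protein Larp1 control translation. Quiescent satellite cells have little RNA and cytoplasm, and ribosome production grows as they enter the cell cycle after injury. The study asked what loss of Paxbp1, a protein that binds Pax3 and Pax7, does to that entry.

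Library totals ran from 23327359 to 28050748 counts. Paxbp1 itself was at 68.6 ± 6.81 CPM (counts scaled to a common library size with TMM factors, mean ± SD, n = 3 throughout) in the controls and at 110.2 ± 15.4 CPM in the libraries labelled iKO, a rise (log2 fold change 0.68 ± 0.13 SE, edgeR adjusted p = 0.00954) that goes against the label. Counts over a whole gene do not show whether floxed exons were deleted, so groups are called by their labels and each direction below is drawn from them. Of 10 satellite cell markers 6 rose and 3 fell, beside 8.15% and 12.3% of all tested genes. Those that rose were Pax7, Chodl, Sdc4, Cdh15, Vcam1 and Calcr. Myf5, Itga7 and Des fell, and Myod1 was not called (-0.265 ± 0.080, adjusted p = 0.0511). The summed level of all 10 was 9661 to 10160 CPM in the controls and 12190 to 12770 CPM in iKO. It leaned on Sdc4, the most abundant of them, which rose from 3911 ± 251 to 6087 ± 214 CPM. Whether the share of satellite cells differed between groups was not tested. Over 7 marker lists of other cell types, 0 of 41 tested markers rose and 1 fell, beside the same shares of all tested genes. The 1 that fell was the myofibre marker Acta1 (-1.84 ± 0.51, adjusted p = 0.0379). All 5 tested myofibre markers (median -0.91) and 4 of 5 glia markers had log2 fold changes below 0, and each other list held both signs. The ranges of the summed levels overlapped between groups in each list. For fibro-adipogenic markers they were 1016 to 1123 CPM in the controls and 849 to 1166 CPM in iKO. None of the markers of other cell types was at 0 in all libraries, and the part of other cells in the results was not tested.

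Because this class of messenger RNA is known for a pyrimidine tract at its start, the starts of the 12 called members with an entry are shown; the longest run in them had 4 (Rps19) to 18 bases (Rpl35). They come from RefSeq's promoter table for GRCm38.p6, which held 62 of the 87 members and, among called members, lacked Rpl3, Rpl29, Rpl36 and Rps29. Each line gives 40 bases before and 20 bases after the first listed start, 5′ to 3′ on the strand of the gene, and capitals mark the longest run of C and T bases that touches the 20 bases on either side of the start.
Rps28 (chr17:33824543-33824602, minus strand): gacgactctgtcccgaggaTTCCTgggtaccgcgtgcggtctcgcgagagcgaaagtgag
Rps27 (chr3:90213629-90213688, minus strand): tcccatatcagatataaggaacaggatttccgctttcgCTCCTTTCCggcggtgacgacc
Rps26 (chr10:128626487-128626546, minus strand): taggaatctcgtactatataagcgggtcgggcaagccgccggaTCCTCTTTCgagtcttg
Rps15 (chr10:80292391-80292450, plus strand): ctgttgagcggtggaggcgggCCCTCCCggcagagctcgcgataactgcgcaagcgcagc
Rps19 (chr7:24884552-24884611, plus strand): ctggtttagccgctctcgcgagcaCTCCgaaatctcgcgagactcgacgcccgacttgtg
Rpl38 (chr11:114668540-114668599, plus strand): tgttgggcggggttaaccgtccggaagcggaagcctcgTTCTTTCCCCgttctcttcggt
Rpl39 (chrX:37085203-37085262, minus strand): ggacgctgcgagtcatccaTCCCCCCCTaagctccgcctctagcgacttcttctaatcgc
Rpl37 (chr15:5116573-5116632, plus strand): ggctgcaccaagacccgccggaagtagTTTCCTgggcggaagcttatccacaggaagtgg
Rpl35 (chr2:39005112-39005171, minus strand): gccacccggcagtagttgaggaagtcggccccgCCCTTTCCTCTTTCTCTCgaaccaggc
Rpl13 (chr8:123102310-123102369, plus strand): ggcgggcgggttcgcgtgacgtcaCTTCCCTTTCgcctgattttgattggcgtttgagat
Rpl13a (chr7:45128726-45128785, minus strand): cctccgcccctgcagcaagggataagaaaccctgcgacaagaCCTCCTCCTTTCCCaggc
Rps12 (chr10:23787190-23787249, minus strand): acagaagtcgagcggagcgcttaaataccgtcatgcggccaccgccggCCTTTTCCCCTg

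A run of at least 8 pyrimidines, searched on the strand of the gene, touched that window in 27 of 57 core members with an entry (47.4%) and in 20.8% of the 27025 genes of the table. Among core members it was present in 7 of the 11 that rose (63.6%), in the 1 that fell (Rps12) and in 19 of the 45 that were not called (42.2%). In Rpl39 and Rpl13, counted here, it ended before the annotated start. A C followed by 4 pyrimidines at the start itself was found in 12 of 57 core members (21.1%) and in 2.49% of all genes. It was present in 3 of the 11 that rose (27.3%), 0 that fell and 9 of the 45 not called (20%). The letters CCGGAAG, the core of the site of ETS-family factors such as Gabpa, were found on either strand of the 250 bases before the start in 18 of 57 core members (31.6%) and in 7.05% of all genes. Read on the other strand these letters begin with pyrimidines, so this search and the search for runs can overlap. Annotated starts need not be the start used in these cells, and a match is a description of the letters only.

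Most ribosomal protein genes were expressed at close levels in both groups, and a minority moved by less than 1.5-fold. All 77 core members and 6 of the 10 copies passed the count filter, which kept 16252 genes. Of the core members 13 rose, 3 fell and 61 were not called (edgeR's quasi-likelihood test with a Benjamini-Hochberg threshold of 0.05). The background was 20.4% called among all tested genes, 8.15% as higher and 12.3% as lower, beside 16.9% and 3.9% of the core members. This background includes genes with far fewer counts than most core members. With at least 5 CPM in 3 libraries required, 3562 of 10340 genes were called, and more members were called higher as well. The median log2 fold change was 0.13 over the core members and 0.023 over all tested genes. Fold changes of core members ran from -0.41 (Rps12) to 0.54 (Rps28), with an SD of 0.19, where that of all tested genes was 1.03. The groups did not overlap in 32 of the 77 core members, against 39.8% of all tested genes. Fewer cells with a messenger RNA and less of it in each cell cannot be told apart in these sorted populations.

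**Figure D1:**
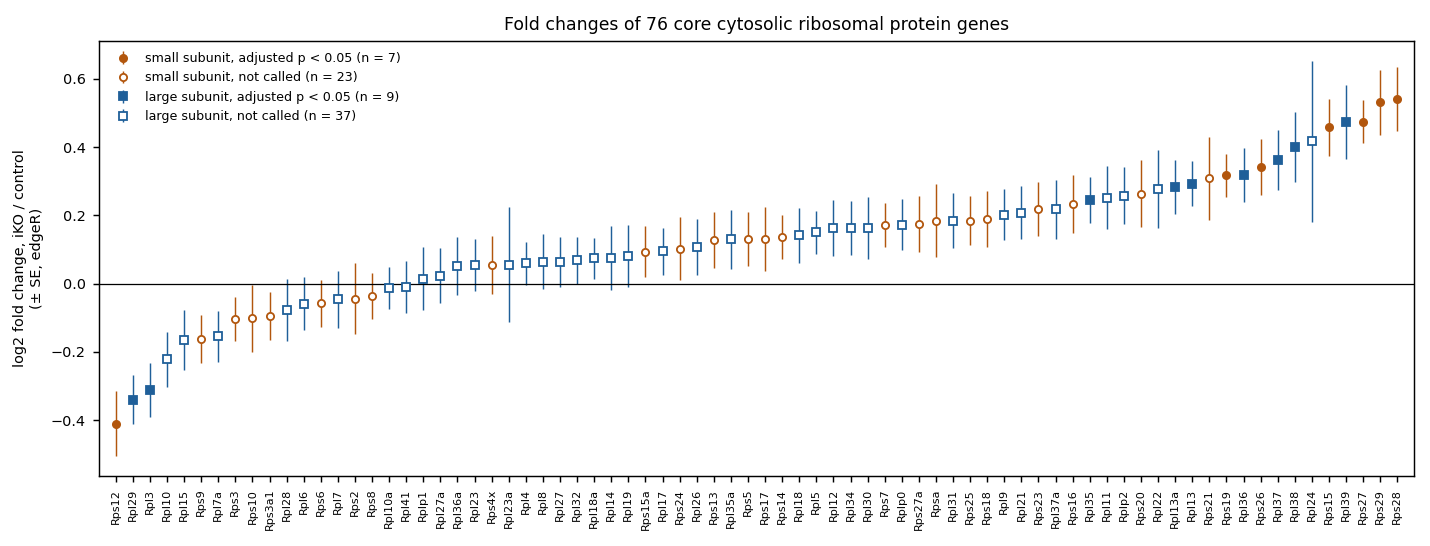
Log2 fold change (iKO over control) ± SE from edgeR for 76 of the 77 core members, in order of size; circles are small-subunit and squares large-subunit genes, and filled symbols passed an adjusted p of 0.05. The 7 called small-subunit and 9 called large-subunit genes sit at both ends, from -0.41 for Rps12 to 0.54 for Rps28.

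Among the 31 small-subunit genes 6 rose, 1 fell and 24 were not called, with a median of 0.14. The largest rise was that of Rps28 (chromosome 17, 33819027 to 33824562 in GRCm38, minus strand), whose protein lies where messenger RNA leaves the small subunit. Its level was 153, 148 and 167 CPM in the controls and 240, 237 and 203 CPM in iKO (log2 fold change 0.54 ± 0.094, adjusted p = 0.00602). Every iKO library lay above every control. Rps29, a zinc-binding protein of the head of the subunit, was at 152, 143 and 169 CPM in the controls and at 232, 235 and 205 CPM in iKO (0.53 ± 0.095, adjusted p = 0.00684). Rps27, another zinc-binding protein, had the smallest adjusted p of all members: it was at 426, 445 and 468 CPM in the controls and at 619, 621 and 622 CPM in iKO (0.47 ± 0.063, adjusted p = 0.00181). The SD of the iKO libraries was 1.42 CPM.

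Rps15, which sits in the head close to the decoding site, was at 381, 368 and 420 CPM in the controls and 581, 520 and 503 CPM in iKO (0.46 ± 0.083, adjusted p = 0.0073). Rps26, a neighbour of Rps28 at the mRNA exit, went from 436 ± 21.2 to 553 ± 48.6 CPM (0.34 ± 0.082, adjusted p = 0.0217). Rps19, needed to mature the RNA of the small subunit and known for mutations in Diamond-Blackfan anaemia, went from 968 ± 26.2 to 1206 ± 73.1 CPM (0.32 ± 0.063, adjusted p = 0.0106). The groups did not overlap for any of these 6 genes. Rps27, Rps28, Rps29, Rps15 and Rps19 stayed called whichever library was left out, with adjusted p up to 0.0356. They were the only called core members of which this held (5 of 16). Leaving out control 1, control 2, iKO 1 or iKO 2 ended the call of Rps26, whose adjusted p reached 0.069.

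Of the 46 large-subunit genes 7 rose, 2 fell and 37 were not called, with a median of 0.10. Rpl39, one of the smallest ribosomal proteins and part of the wall of the exit tunnel for the new protein chain, was at 102, 98.3 and 117 CPM in the controls and at 157, 151 and 132 CPM in iKO (0.47 ± 0.11, adjusted p = 0.0181). Rpl38, known in mouse embryos for its part in translating Hox messenger RNAs, was at 126, 117 and 142 CPM in the controls and at 183, 166 and 159 CPM in iKO (0.40 ± 0.10, adjusted p = 0.0275). Both groups of libraries were apart for both genes. Rpl37, a zinc-binding protein, went from 242 ± 14.0 to 311 ± 26.4 CPM (0.36 ± 0.088), and Rpl36 from 282 ± 11.9 to 352 ± 26.9 CPM (0.32 ± 0.080). Rpl13 rose from 1455 ± 20.5 to 1782 ± 139 CPM (0.29 ± 0.066, adjusted p = 0.0172), the most abundant by CPM of the genes called. Rpl13a, also known for silencing translation of inflammatory messenger RNAs when it leaves the ribosome, went from 897 ± 45.5 to 1091 ± 99.7 CPM (0.28 ± 0.079, adjusted p = 0.0397). The remaining riser was Rpl35, at the mouth of the exit tunnel, which was named after its value was seen (0.25 ± 0.067, adjusted p = 0.0354).

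The large-subunit rises lost their calls more often than the small-subunit ones when 1 library was left out. Their number fell from 7 to 1 without control 1, control 2 or iKO 1 and to 0 without iKO 2, while that of the small subunit stayed at 5 or 6. Calls over all tested genes fell as well, from 3315 of 16252 with all libraries to 2816 of 17193 without control 1 and 2053 of 17102 without iKO 2. Whether the subunits differ in how well calls held was not tested. Rpl13 lost its call only without iKO 2 (adjusted p = 0.0578), and Rpl35 without each library in turn (adjusted p up to 0.107). Rpl39, Rpl37 and Rpl13a lost theirs without control 1, control 2, iKO 1 or iKO 2. For Rpl38 iKO 3 joined these libraries, and for Rpl36 control 3 (adjusted p up to 0.11 over these 5 genes).

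The members that fell were Rps12, Rpl29 and Rpl3. Rps12, a protein of the beak of the small subunit (chromosome 10, 23785183 to 23787275, minus strand), was at 173, 163 and 190 CPM in the controls and at 142, 130 and 124 CPM in iKO (-0.41 ± 0.095, adjusted p = 0.0187). Rpl29, which mice can live without, was at 290, 303 and 305 CPM in the controls and 248, 238 and 224 CPM in iKO (-0.34 ± 0.072, adjusted p = 0.0136). Rpl3, which reaches into the peptidyl transferase centre, was at 1213, 1258 and 1341 CPM in the controls and 1115, 1026 and 931 CPM in iKO (-0.31 ± 0.079, adjusted p = 0.027). In each of the 3 genes all controls lay above all iKO libraries. Their calls ended without control 3, iKO 2 or iKO 3, and those of Rpl29 and Rpl3 also without control 2 (adjusted p up to 0.0928).

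**Figure D2:**
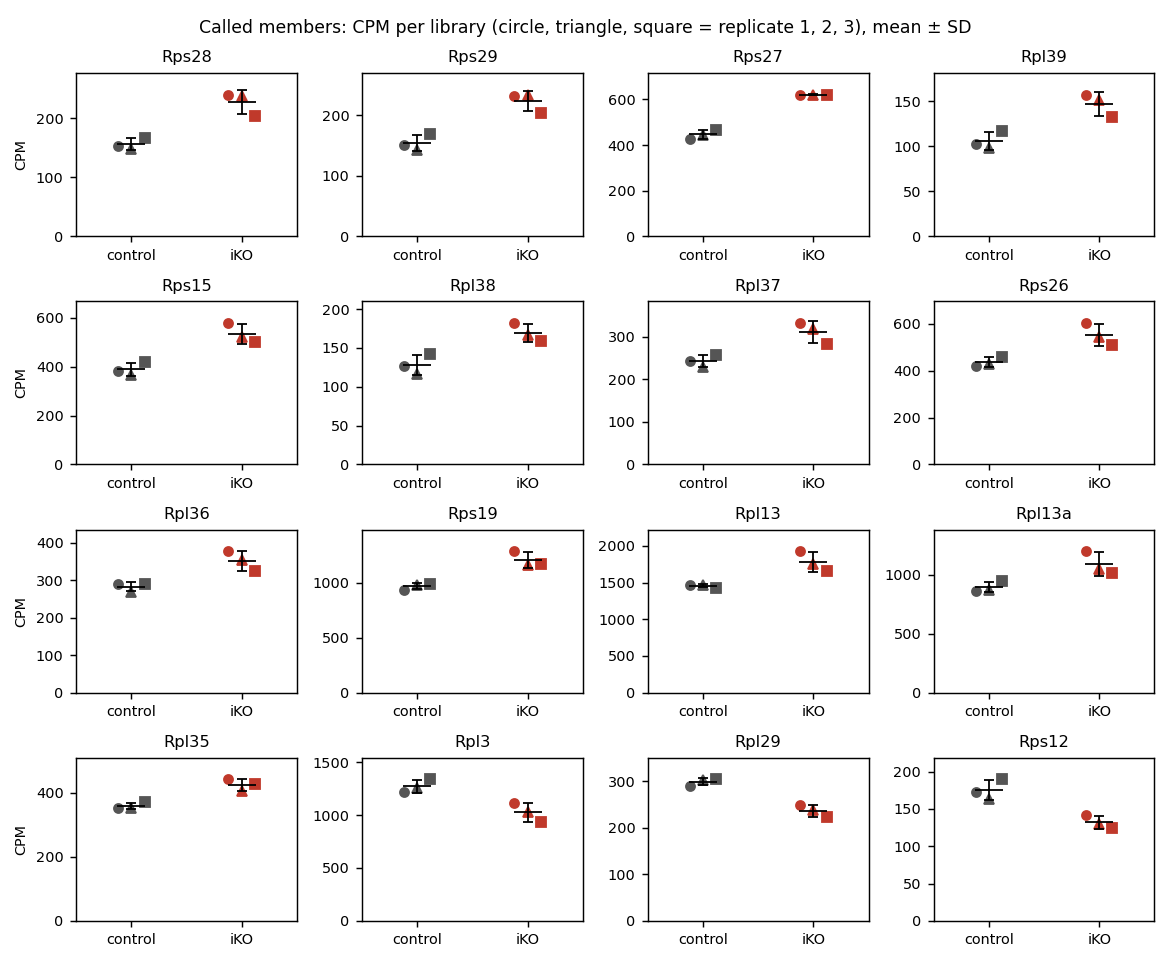
CPM in each library (circle, triangle and square for replicates 1, 2 and 3) for the 16 called members, with the mean (bar) ± SD of the 3 libraries of a group; each axis starts at 0. No panel has overlapping groups, and the last 3 panels (Rpl3, Rpl29, Rps12) are those where iKO is lower.

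Rpl5 and Rpl11, the stalk proteins, Rps6, Rpsa and Rps27a were not called. Rpl5 and Rpl11 form with the 5S ribosomal RNA a particle that can bind Mdm2, the ubiquitin ligase of p53. Rpl5 was at 750, 720 and 735 CPM in the controls and at 854, 761 and 832 CPM in iKO (0.15 ± 0.064, adjusted p = 0.15). Rpl11 was at 407, 421 and 436 CPM in the controls and at 560, 502 and 442 CPM in iKO (0.25 ± 0.092, adjusted p = 0.0964). The groups did not overlap in either gene, but the spread of the iKO libraries was 48.2 CPM (SD) for Rpl5 and 58.9 CPM for Rpl11, against 14.8 and 14.3 CPM in the controls.

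The stalk that recruits translation factors is built on Rplp0 and carries Rplp1 and Rplp2. Rplp0 stood at 3458 ± 58.2 (control) and 3898 ± 402 CPM (iKO) (0.17 ± 0.074, adjusted p = 0.146), and Rplp2 at 354 ± 20.1 and 423 ± 34.4 CPM (0.26 ± 0.083, adjusted p = 0.0646). Rplp1 was at 629 ± 30.0 and 635 ± 74.3 CPM (0.014 ± 0.092, adjusted p = 0.94). Rps6, the substrate of the S6 kinases, stood at 889 ± 37.0 (control) and 854 ± 58.3 CPM (iKO) (-0.058 ± 0.070, adjusted p = 0.629). Rpsa, also known as the laminin receptor, was at 758 ± 44.7 and 861 ± 130 CPM (0.18 ± 0.11, adjusted p = 0.289). Rps27a, made as a fusion with ubiquitin, was at 604 ± 33.1 and 682 ± 61.2 CPM (0.17 ± 0.083, adjusted p = 0.19). The groups did not overlap for Rplp0 and Rplp2 and overlapped for the other 4 genes, and an adjusted p above 0.05 does not show that levels were equal.

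Members moved together from library to library. Within the controls, control 3 had the highest CPM in 66 of the 77 core members, and within the iKO libraries iKO 1 had the highest in 74 and iKO 3 the lowest in 67. The median log2 deviation of the core members from the control mean was -0.025, -0.039 and 0.060 in the control libraries, and 0.25, 0.11 and 0.022 in the iKO libraries, in replicate order. Control 3 thus stood above iKO 3, so that this median overlapped between the groups. Without iKO 1 the median log2 fold change of the small subunit was 0.063 and without iKO 3 it was 0.20. The fold changes of Rps4x, Rpl4, Rpl23a and Rplp1, none of them called, had the opposite sign without iKO 1 (-0.076 to -0.008).

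**Figure D3:**
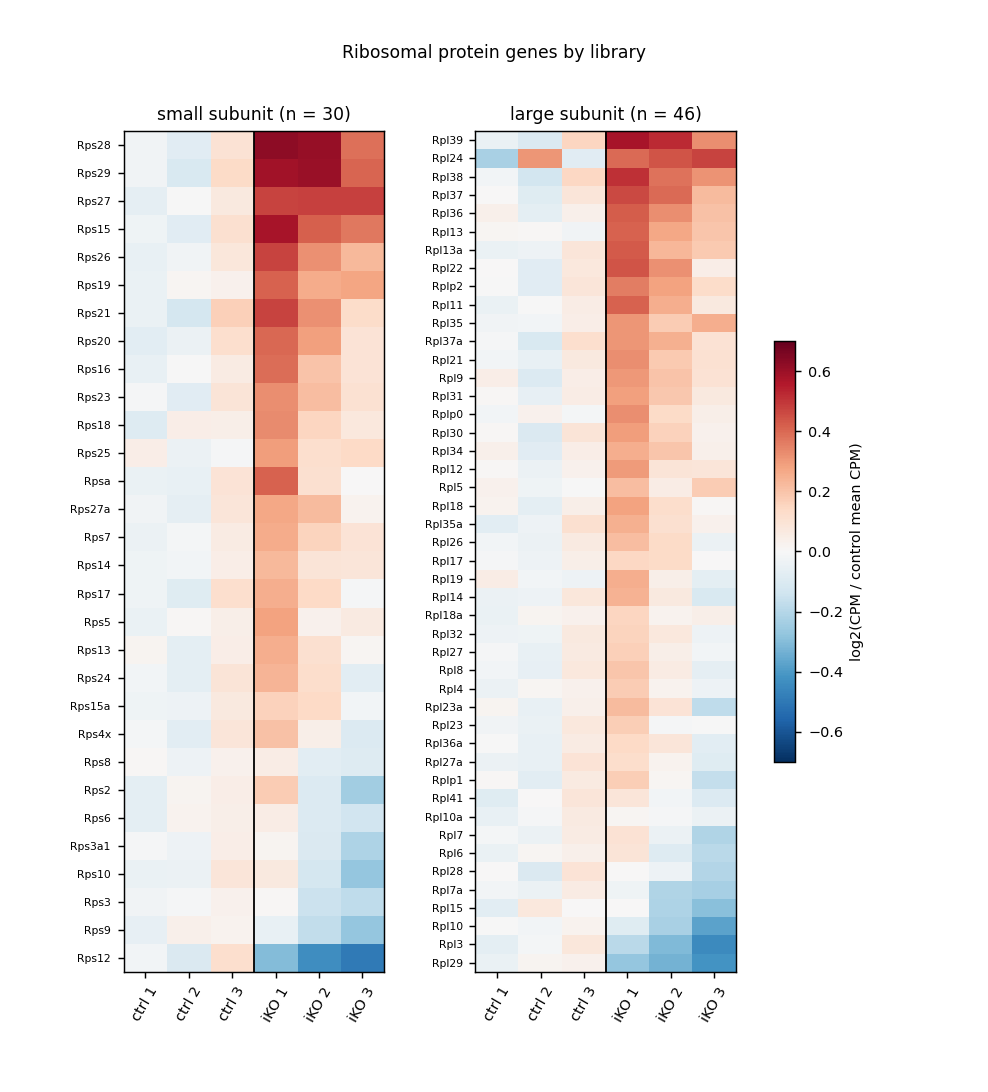
Log2 ratio of each library's CPM to the control mean for 30 small-subunit (left) and 46 large-subunit genes (right), ordered by fold change; red is higher and blue lower than the control mean. iKO 1 is the reddest column in most rows, while the lowest rows (Rps12, Rpl3, Rpl29) are blue in all 3 iKO libraries.

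How many members were called depended on how libraries were scaled. TMM factors were 0.953 to 0.958 in the controls and 1.03 to 1.06 in iKO, and without them the median log2 fold change of all tested genes was 0.16, not 0.023. Scaled by library totals alone, 41 core members rose (18 of the small and 23 of the large subunit) and none fell, where 20.7% of all tested genes were called, 11.8% as higher and 8.86% as lower. The core median was then 0.26, and Rps12, Rpl29 and Rpl3 had adjusted p of 0.0674, 0.0676 and 0.126. With upper-quartile factors 30 core members rose and 2 fell, beside 20.2% of all tested genes called, 10% as higher and 10.2% as lower. Before any scaling, core members took 4.57, 4.595 and 4.84% of all counts in the control libraries, against 5.86, 5.37 and 5.11% in the iKO libraries, in replicate order.

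A scale that looks only at the balance within the class was used as well. Library sizes were set to the summed counts of the 77 core members, an alternative added after the data were seen. On such a scale the members' rises and falls must offset each other in counts, so that falls beside rises are built in. Relative to this total 11 core members rose and 9 fell, where 19.5% of all tested genes were called, 5.66% as higher and 13.8% as lower. The 6 small-subunit risers stayed called (0.23 to 0.45), as did Rpl39, Rpl38, Rpl37, Rpl13 and Rpl13a (0.19 to 0.38). Rps12 (-0.50, adjusted p = 0.00559), Rpl29 (-0.43, adjusted p = 0.00555) and Rpl3 (-0.40, adjusted p = 0.00234) fell, and so did Rpl10, which joins the large subunit late in its assembly (-0.32, adjusted p = 0.00776). The other 5 that fell, named after their values were seen, were Rps3, Rps9, Rps3a1, Rpl7a and Rpl15 (-0.26 to -0.19). Neither Rpl10 nor any of these 5 was called with TMM factors. Rpl36 (adjusted p = 0.0583) and Rpl35 (adjusted p = 0.188) were not called on this scale.

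The split of the class between the subunits moved by less than 1 percentage point. The small subunit took 39.2, 39.4 and 39.7% of the core counts in the control libraries, and 39.9, 39.7 and 39.9% in the iKO libraries, that is 39.5% ± 0.28 and 39.9% ± 0.11. On the FPKM scale, which divides by gene length, the shares were 42.74, 42.85 and 43.26% in the control libraries, and 43.82, 43.56 and 43.93% in the iKO libraries. Every iKO library lay above every control on that scale, while the shares of counts overlapped. A score over members was given no test.

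**Figure D4:**
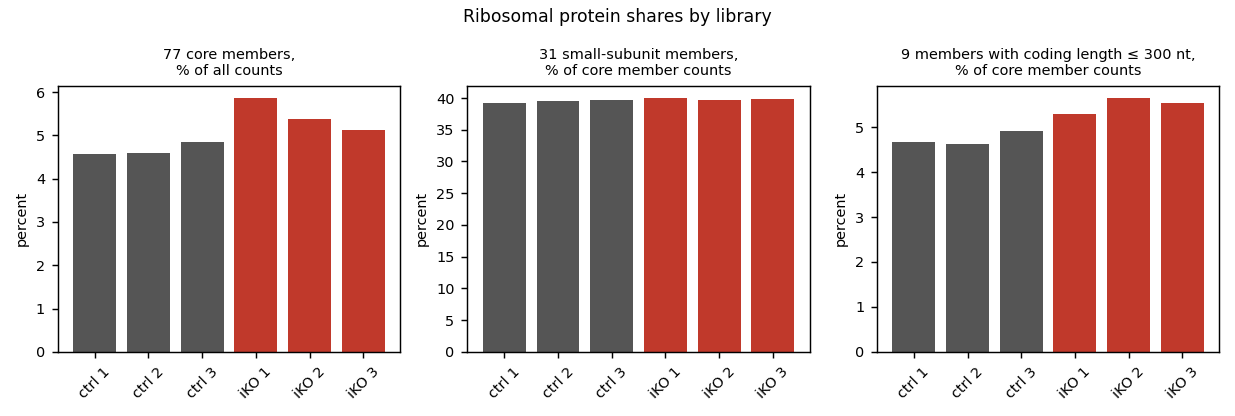
Share per library of all counts taken by the 77 core members (left), share of core counts taken by the 31 small-subunit genes (middle) and by the 9 members with a coding length of at most 300 nt (right); bars start at 0, grey for control and red for iKO. The left share is 4.57 to 4.84% in the controls and 5.11 to 5.86% in iKO, the middle one 39.2 to 39.9% in all 6 libraries.

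Short members tended to have higher log2 fold changes than long ones. Across the 77 core members the log2 fold change and the coding length had a Spearman rho of -0.51 (Pearson r = -0.48), with rho = -0.65 over the 31 small-subunit and -0.40 over the 46 large-subunit genes. These are correlations across genes measured in the same 6 libraries, given as a description. With each library left out in turn, rho ran from -0.55 to -0.47. The other 13270 tested protein-coding genes had rho = 0.042. Within the class short genes also had fewer counts (rho = 0.70 between coding length and mean CPM), and mean CPM and fold change had rho = -0.29. The part of abundance in the relation was not tested. With linear trends on exon length and GC content over all genes removed, rho was -0.48. Exon length itself had rho = -0.14 with the fold change of core members and 0.026 over the other genes. Its removal could therefore change little and does not test a trend on coding length. Between fold change and the length of the whole messenger RNA, rho was -0.25 over the core members.

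Of the 9 core members with a coding length of at most 300 nt, a limit set after their values were seen, 6 rose and none fell, with a median of 0.40. They are Rps27, Rps28, Rps29, Rpl37, Rpl38 and Rpl39, and those not called are Rps21, Rpl37a and Rpl41. Rpl41, the shortest at 75 nt, stood at 644 ± 37.3 (control) and 639 ± 41.4 CPM (iKO) (-0.010 ± 0.075, adjusted p = 0.946) and so departed from the pattern. Among the 22 members of over 600 nt (at most 1300 nt), 2 rose and 1 fell, with a median of -0.025. Of 291 other tested protein-coding genes of at most 300 nt, 37 rose and 25 fell, with a median of 0.13. Of 4428 others of over 600 and at most 1300 nt, 320 rose and 718 fell, with a median of -0.072. The 9 short members took 4.68, 4.62 and 4.91% of core counts in the controls and 5.29, 5.64 and 5.54% in iKO, with no overlap.

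**Figure D5:**
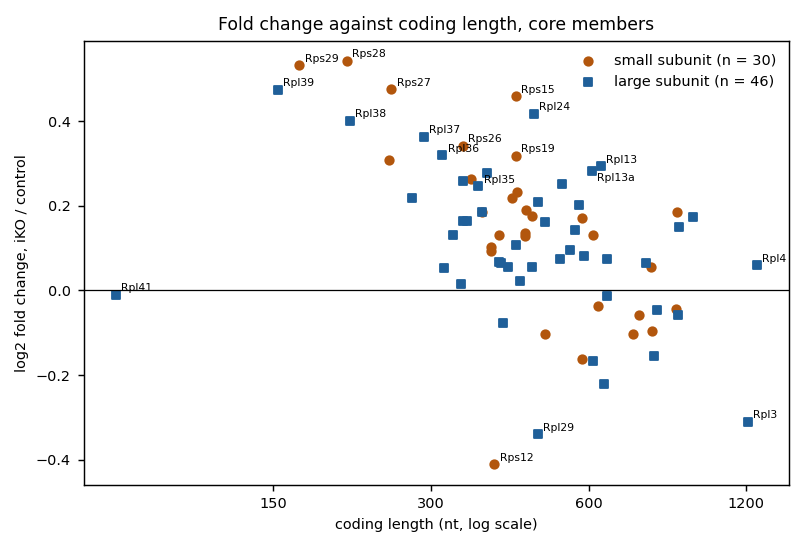
Log2 fold change (iKO over control) against coding length (log axis) for 76 of the 77 core members, circles for the small and squares for the large subunit; called genes and Rpl41, Rpl4 and Rpl24 are labelled. Short genes lie higher on average (rho = -0.51 over all 77), with Rpl41 at -0.010 and Rps12 at -0.41 as exceptions.

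Per length, the core members spanned a wide range although their proteins are needed in like amounts. Median FPKM in the controls was 418 for the small and 277 for the large subunit. The highest in the controls were Rpl4 (2213 ± 78.4 FPKM), Rplp0 (2034 ± 47.8 FPKM) and Rpl32 (1757 ± 85.1 FPKM), which differed from each other by more than their spread. In the small subunit Rps3a1 stood at 1168 ± 39.6 FPKM and Rps26 at 953 ± 54.0 FPKM, also further apart than their spread. The lowest of the small subunit were Rps20 (77.1 ± 6.25 FPKM) and Rps15a (55.0 ± 2.71 FPKM), and of the large subunit Rpl23a (23.9 ± 0.73 FPKM) and Rpl24 (7.397 ± 1.52 FPKM). The length behind the FPKM was within 5% of the exon length in GENCODE M21 for 51 of the 77 core members. The order of genes therefore holds for the authors' gene models only: Rps15a, for instance, has 6270 nt of annotated exons and a coding length of 390 nt.

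The 2 lowest members had few counts, 147 to 306 per library for Rpl24 and 452 to 689 for Rpl23a. Ribosomal protein genes have many near-identical pseudogenes, and the sources used here do not say how reads matching several places were counted, so the levels are uncertain. Rows named as pseudogenes of Rpl23a, 14 in all, held 318 to 484 counts per library. Rpl24 stood at 7.80 ± 1.55 (control) and 10.4 ± 0.29 CPM (iKO) (0.42 ± 0.24, adjusted p = 0.276) and Rpl23a at 20.7 ± 0.64 and 21.5 ± 2.95 CPM. Adding the counts of all such pseudogene rows to the parent genes left the calls at 13 higher and 3 lower.

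Of the additional copies, the ones that encode tissue-restricted proteins were near 0. Rpl3l, the form of Rpl3 in mature striated muscle, had 12, 3 and 0 counts in the controls and 6, 0 and 0 in iKO. Rpl10l, known from the testis, had 0 counts in 5 libraries and 7 in iKO 3, and Rpl39l had at most 3. Rps12l1 also stayed below the filter. Rpl22l1, which shares ancestry with Rpl22, stood at 99.5 ± 4.17 (control) and 105 ± 8.57 CPM (iKO) (0.079 ± 0.097, adjusted p = 0.64). Rpl22 was at 133 ± 7.01 (control) and 161 ± 22 CPM (iKO) (0.28 ± 0.11, adjusted p = 0.133). The log2 ratio of Rpl22l1 to Rpl22 was -0.48, -0.28 and -0.50 in the controls and -0.67, -0.66 and -0.51 in iKO, with no overlap. Its difference of -0.19 had an exact two-sided permutation p = 0.1, the smallest that 3 against 3 libraries allow (0.3 adjusted over 3 pairs). Without control 2 the difference was -0.124.

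Rpl7l1, which works in making the large subunit, stood at 376 ± 21.1 (control) and 412 ± 26.5 CPM (iKO) (0.13 ± 0.077, adjusted p = 0.293), and its parent Rpl7 at 1071 ± 37.4 and 1037 ± 112 CPM (-0.046 ± 0.084). The ratio of Rpl7l1 to Rpl7 differed by 0.18 on the log2 scale (exact permutation p = 0.3, also 0.3 adjusted) and by 0.070 without iKO 3. Rps4l was at 8.14, 9.32 and 13.4 CPM in the controls and at 2.84, 4.12 and 10.9 CPM in iKO, so that its groups overlapped (-0.79 ± 0.49, adjusted p = 0.325). Its parent Rps4x was at 941 ± 51.4 and 978 ± 102 CPM, and the ratio differed by -1.05 on the log2 scale (exact permutation p = 0.3, adjusted 0.3). Without iKO 1 this difference was -0.556 and without iKO 3 it was -1.67. Rps4l itself was called when iKO 3 was left out (-1.56, adjusted p = 0.0412), and its log2 fold change was -0.459 without iKO 1.

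Among ribosomal genes outside the name pattern, Fau (-0.065 ± 0.064) and Rpl36al (-0.007 ± 0.11) were not called. Rack1, a scaffold for signalling proteins on the small subunit, fell from 953 ± 52.9 to 723 ± 58.9 CPM (-0.40 ± 0.078, adjusted p = 0.00969). Of 20 genes known for mutations in Diamond-Blackfan anaemia, an inherited failure to make red cells, 6 rose (Rps19, Rps26, Rps27, Rps28, Rps29 and Rpl35) and none fell, with a median of 0.16, beside 13 and 3 of the 77 core members. All 20 are core members, so this is no separate evidence.

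Lists of other genes of translation held falls as well as rises, and their medians depended on the scaling. The 19 other TOP messenger RNAs, which include Fau and Rack1, had a median of -0.13, and 1 of them rose (5.26%) and 6 fell (31.6%), beside 8.15% and 12.3% of all tested genes. Npm1, a nucleolar chaperone of ribosome assembly, fell from 2344 ± 62.2 to 1324 ± 119 CPM (-0.82 ± 0.072, adjusted p = 3.3e-04), and Hnrnpa1, an RNA-binding protein of splicing, from 851 ± 37.9 to 508 ± 34.4 CPM (-0.74 ± 0.072, adjusted p = 4.9e-04). The median over 33 tested ribosome biogenesis genes was -0.039, with 3 that rose (9.09%) and 6 that fell (18.2%), shares near those of all tested genes. The nucleolar GTPase Gnl3 rose (0.51 ± 0.070) and Bop1, which matures the RNA of the large subunit, fell (-0.66 ± 0.097). Among 6 tested chaperones of ribosomal proteins 2 fell, Nap1l1 (-0.54 ± 0.073), which is also on the TOP list, and Heatr3 (-0.70 ± 0.14), which escorts Rpl5 and Rpl11. Of 10 genes that regulate the translation of TOP messenger RNAs 1 rose (10%) and 4 fell (40%). Tsc1 and Tsc2 form together a brake on mTORC1, and they moved in opposite directions. Tsc1 rose (19.3 ± 0.96 to 40.2 ± 2.53 CPM, 1.06 ± 0.14, adjusted p = 0.00153) and Tsc2 fell (58.0 ± 3.29 to 32.8 ± 5.74 CPM, -0.82 ± 0.16, adjusted p = 0.00892). Larp1, the binder of TOP tracts, stood at 68.8 ± 3.66 (control) and 48.4 ± 2.21 CPM (iKO) and fell (-0.51 ± 0.11, adjusted p = 0.014). It was not called when iKO 2 was left out. Eif4e, which binds the cap, also fell (-0.47 ± 0.072), as did Eif4ebp1, the repressor of cap-dependent initiation (402 ± 12.3 to 258 ± 11.9 CPM, -0.64 ± 0.069, adjusted p = 7.3e-04). Scaled by library totals, where the median of all tested genes was 0.16, the medians were 0.002 for the other TOP messenger RNAs (1 rose, 5 fell), 0.095 for the biogenesis genes (10 rose, 3 fell), -0.056 for the chaperones and -0.21 for the regulators (2 rose, 4 fell). Differences between these lists and the ribosomal proteins were not tested.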

How the data were processed

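Libraries were made from total RNA by the Smart-Seq2 protocol, which does not mark strand, per the labels' protocols. Trim Galore, STAR, Subread's featureCounts, DESeq2 and the mm10 build appear in the submitters' processing notes, with no versions or roles. The authors deposited a table of raw counts by gene and FPKM values whose scaling between libraries matched median-of-ratios size factors to within 1.1e-14. Of 46078 rows, 551 had no gene name (0.108 to 0.123% of counts) and were left out.

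Counts were fitted in R 4.3.3 with edgeR 4.0.16: filterByExpr (minimum count 10, minimum total 15), TMM factors, quasi-likelihood tests of group, without covariates, on all 6 libraries, and Benjamini-Hochberg adjustment over 16252 genes, called under 0.05. The SE is the log2 fold change divided by the square root of F. The fit was tested on simulated data with the same dispersion for all genes and planted folds larger than those of the called members. That test therefore does not show how well changes of their size are found. Positions and lengths are from GENCODE M21 (coding length: 1 principal transcript per gene), which held all 87 members. Ratios of paralogues used log2 of counts plus 0.5. Members, lists, tests and alternatives were chosen with earlier results of these data known. Members named are Paxbp1, up to 6 largest called rises and falls per subunit with groups apart, the 3 highest and 2 lowest per subunit by FPKM, and the genes of fixed lists; some genes that the rule takes are not reported here, singly or in figures. Alternatives used limma 3.58.1 and DESeq2 1.42.0.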

Additional observations from a re-analysis of the deposited data

How the results depend on the processing

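No called member named by the rule changed sign under any setting tried, but the number called did not hold. Genes called higher numbered 30 with upper-quartile factors (15 small, 15 large), 42 with library totals (18 and 23, with Rpl7l1), 32 with at least 5 CPM in 3 libraries (15 and 17), 23 with DESeq2 (11 and 12) and 6 with limma on unfiltered log2(FPKM + 1) (1 large). Genes called lower were 0 with library totals in both subunits, 1 with unfiltered FPKM (0 small, 1 large) and 1 of the large subunit with upper-quartile factors. With length and GC trends removed they were 5, of which 4 were core members. Limma on log2 CPM without the removal called 3 core members lower. Relative to the ribosomal protein total 9 were called lower (4 small, 5 large). Leaving out 1 library gave 5 to 14 higher (5 to 6 small, 0 to 8 large) and 0 to 4 lower (0 to 1 small, 0 to 3 large). Calls over all tested genes moved too. With TMM factors 3315 of 16252 were called, with at least 5 CPM in 3 libraries 3562 of 10340, and with DESeq2 4235 of 16252. Unfiltered FPKM gave 2320 of 33017, removal of length and GC trends 3825 of 16192, and leaving out 1 library 2053 to 2816. Medians moved to 0.26 (all members), 0.27 (small) and 0.23 (large) with library totals, and for the small subunit to 0.21 with upper-quartile factors and 0.20 with the stricter filter (0.063 to 0.20 with 1 library left out). The cause was not tested. The replicate block gave 4 higher (0 large) and 0 lower (0 small, 0 large), where 2215 of 16252 tested genes were called. The labels do not say whether replicate numbers pair the libraries. Deviations from the group means correlated at -0.067, -0.0021 and -0.059 between same-numbered libraries. With so few libraries per group these values cannot settle whether libraries were paired.

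Signs turned for uncalled genes near 0. With upper-quartile factors, library totals and the stricter filter Rpl7 was at 0.032, 0.086 and 0.023 and Rps6 at 0.020, 0.074 and 0.011, and Rps3a1 was at 0.037 with library totals. With length and GC trends removed Rpl23a, Rpl32 and Rps4x were at -0.051, -0.011 and -0.002, and the log2 fold change of Rplp1 was -0.093. Relative to the ribosomal protein total Rpl22l1, Rpl23a, Rpl32, Rpl4, Rplp1 and Rps4x were at -0.014, -0.039, -0.022, -0.032, -0.080 and -0.038. With 1 library left out Rpl23a ran from -0.036 to 0.159 and Rpl4 from -0.008 to 0.104. Rplp1 ran from -0.076 to 0.095 and Rps4x from -0.028 to 0.124. Each of these genes was negative without iKO 1. Rpl7, at -0.046 with all libraries, ran from -0.127 to 0.031 and so turned to above 0. As shares of summed FPKM the core members took 8.87% in the controls and 10.4% in iKO, and the small subunit 42.95% and 43.8% of them. With pseudogene rows added the small subunit took 40.05% of core counts in iKO.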
